A study of Orbilia oligospora with 12 samples.

Results

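A group of 197 genes of Arthrobotrys oligospora, a fungus that traps nematodes in the soil, is described here. These genes carry no Swiss-Prot, KEGG orthology or Pfam annotation, are abundant, and changed within set limits during trap induction in the wild type. They were chosen from 11479 genes by 3 criteria, namely that all 3 of these annotation fields are empty, that the mean over all 12 libraries is at least 100 TPM (transcript abundance scaled by gene length and library total), and that the wild-type mean at 48 h over that at 0 h, each plus 1 TPM, lies between -2 and 2 on the log2 scale. Of the 3741 genes with no annotation, 264 reached 100 TPM, and 67 of those lay outside the band (22 above it and 45 below it). The level and the wild-type time course were therefore used to choose the genes and are given as description, without a test; the strain contrasts and the time course of the other strain were tested. A member whose mean reached 100 TPM in 1 strain alone had to differ between the strains to be chosen, so the strain difference of such a member is described without a p-value. The level limit used both times of the other strain too. A single member that passed it only with 1 of those times is likewise described over time without a p-value.

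The study compared a strain labelled ΔAorlmA, a deletion of a MADS-box transcription factor gene, with the wild type, each before (0 h) and after 48 h of induction of traps by nematode extract, in hyphae grown on potato dextrose agar. Each of the 4 groups (ΔAorlmA at 0 h, wild type at 0 h, ΔAorlmA at 48 h, wild type at 48 h) had 3 libraries. Every sample, those at 0 h included, carries the same induction label, so the time label alone separates the groups; the labels state neither the number of transformants behind the deletion strain nor how the replicates were grown. The growth protocol in the labels names a different deletion, ΔAosnf1. The gene annotated as RLM1, AOL_s00078g125, had 117 ± 45.8 TPM in ΔAorlmA-labelled libraries at 0 h, against 36.2 ± 5.24 TPM in the wild type (SD, n = 3 each; a log2 fold change of 1.60 with an SE of 0.31, adjusted p = 0.00298), and 97.6 ± 10.7 TPM against 35.1 ± 8.92 TPM at 48 h (1.47, adjusted p = 0.0092). The transcript was thus not lost, and the genotype could not be checked from its level, so only the name given in the labels is used for this strain.

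Arthrobotrys oligospora lives as a saprotroph and, when it senses nematodes, forms adhesive networks of looped hyphae in which the worms are held and digested. MADS-box factors of the Rlm1 type act downstream of the cell wall integrity kinase cascade in budding yeast. Fungal genes without recognisable domains often encode short, lineage-restricted proteins, and small secreted proteins of nematode-trapping fungi are commonly found among them; sequences of the members were not analysed here, so none of these classes was assigned.

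Clean reads numbered 48.5 to 61.1 M per library. The ΔAorlmA-labelled libraries differed widely from the wild type, with 3990 of the 9355 genes tested called at 0 h (42.7%) and 2234 at 48 h (23.9%). At 0 h the median of all genes was -0.56 on the log2 scale, so most genes had lower TPM in ΔAorlmA-labelled libraries. Hyphal housekeeping genes were present in every library (actin 731 to 1618 TPM, the summed tubulin genes 561 to 1788 TPM). The summed level of 3 hydrophobin genes, coat proteins of aerial hyphae and conidia, ranged over 40.2 to 406 TPM in ΔAorlmA-labelled libraries at 0 h, against 1798 to 2888 TPM in wild-type libraries at 0 h, and over 82.3 to 1991 TPM against 437 to 1120 TPM at 48 h. Nearly all of that sum came from AOL_s00006g570, and AOL_s00075g89 was listed at 0 in both groups labelled ΔAorlmA and in the wild type at 48 h. The summed level of 6 genes described as sporulation or conidium genes was 178 to 689 TPM against 141 to 162 TPM at 0 h and 240 to 414 TPM against 162 to 191 TPM at 48 h. These genes did not move together. By group means at 0 h, AOL_s00079g472 (267 against 30.4 TPM) and AOL_s00109g105 (69.6 against 34.3 TPM) were higher in ΔAorlmA-labelled libraries. AOL_s00109g69 was alike (37.1 against 38.0 TPM), AOL_s00006g324 lower (8.74 against 51.4 TPM), and the others averaged under 1 TPM. The part of these cell types in the strain differences below was not tested. In bulk RNA, fewer cells of a type and less RNA per cell cannot be told apart.

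The members' mean levels ran over 100.1 to 13987 TPM with a median of 194 TPM; 102 lay under 200 TPM. Levels were concentrated in a few genes: the top 10 held 52.4% of the members' summed TPM and the top 2 held 24.0%. Among all genes ranked by mean TPM, 5 members stood in the first 20 and 14 in the first 100. At the level limit, AOL_s00210g29 (100.1 TPM) and AOL_s00043g637 (100.2 TPM) were just inside and AOL_s00043g273 (99.8 TPM) and AOL_s00006g142 (99.5 TPM) just outside. At the upper edge of the band AOL_s00004g560 (1.96) and AOL_s00054g660 (1.90) were inside and AOL_s00081g18 (2.10) and AOL_s00083g449 (2.11) outside, as log2 ratios of the wild-type means. At the lower edge AOL_s00215g25 (-1.99) and AOL_s00215g814 (-1.93) were inside and AOL_s00110g4 (-2.01) and AOL_s00004g461 (-2.02) outside.

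The band admits sizeable movement, so stability over induction holds only in the sense of its limits. The median wild-type log2 ratio of 48 h over 0 h was -0.21, 121 of 197 members lay within 1 of no change, 87 ratios were above 0 and 110 below it. Over all 12 libraries the SD of a member's log2 level ranged over 0.19 to 4.20 with a median of 0.86, and 77 members (39.1%) exceeded 1. Among 1402 annotated genes that met the same level and band, the median SD was 0.65 and 15.4% exceeded 1. Only 3 members had an SD under 0.3. The steadiest was AOL_s00078g253 (1086 bases; SD 0.19), with 108, 103 and 95.97 TPM in ΔAorlmA-labelled libraries at 0 h, 140.3, 114 and 98.4 TPM in wild-type libraries at 0 h, 132, 135 and 134 TPM in ΔAorlmA-labelled libraries at 48 h and 124, 122 and 128 TPM in the wild type at 48 h. Next came AOL_s00004g36 (477 bases; SD 0.21), which spanned 106 to 175 TPM, and AOL_s00215g308 (1218 bases; SD 0.27), which spanned 94.9 to 192 TPM. None of these 3 was called in any of the contrasts tested.

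The members were short. Coding lengths ran over 165 to 3264 bases with a median of 753 bases and quartiles of 453 and 1179 bases. Of the 197, 17 (8.63%) had at most 300 bases and 79 (40.1%) at most 600 bases. The annotated genes of the same level and band had a median of 939 bases with 28.1% at most 600 bases. Unannotated genes of lower level, 10 to 100 TPM, had a median of 1017 bases and 24.97% at most 600 bases, while the 67 unannotated abundant genes outside the band had a median of 747 bases and 41.8%. All genes together had a median of 1224 bases and 16.6% at most 600 bases. Because TPM divides by length, a limit in TPM asks for fewer reads from a short gene; no test of length was made, since the level chose the members.

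**Figure D1:**
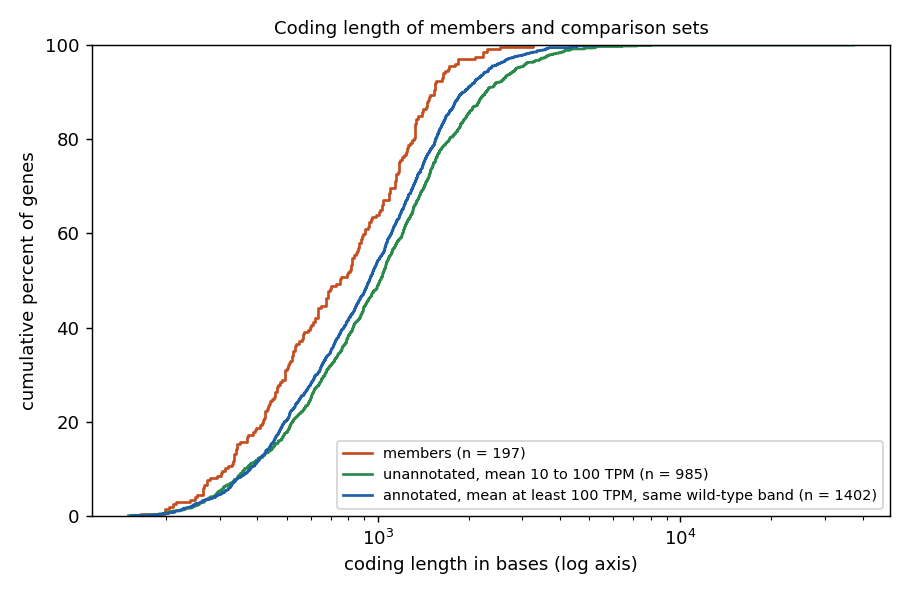
Cumulative share of genes (percent, vertical axis) by coding length (bases, log axis) for the members and the comparison sets. The curve of the 197 members, with a median of 753 bases, lies left of that of the annotated abundant genes, with a median of 939 bases.

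The median level was higher in shorter members. Median mean levels were 253 TPM for the 17 members of at most 300 bases, 233 TPM for 62 members of 300 to 600 bases, 182 TPM for 70 members of 600 to 1200 bases and 147 TPM for 48 longer members. The shortest member, AOL_s00112g90 (165 bases), had 111, 199 and 74.8 TPM in ΔAorlmA-labelled libraries at 0 h, against 298, 127 and 108 TPM in wild-type libraries. After induction the values were 77.7, 32.03 and 44.6 TPM in ΔAorlmA-labelled libraries at 48 h, against 154, 106 and 115 TPM in wild-type libraries, groups that did not overlap (log2 fold change of -1.34 with an SE of 0.45). It reached 100 TPM through the wild type alone. AOL_s00173g20 (198 bases) had 81.9, 246 and 119.8 TPM in ΔAorlmA-labelled libraries at 48 h, against 49.3, 72.3 and 79.2 TPM in wild-type libraries (log2 fold change of 1.02 with an SE of 0.36, adjusted p = 0.0578), which did not pass the threshold. The longest, AOL_s00080g221 (3264 bases), had 691, 242 and 351 TPM in ΔAorlmA-labelled libraries at 0 h, against 97.5, 54.7 and 11.8 TPM in wild-type libraries (log2 fold change of 3.24 with an SE of 0.63). No wild-type library reached any ΔAorlmA-labelled one there. AOL_s00079g446 (2526 bases) had 55.96, 248 and 147 TPM in ΔAorlmA-labelled libraries at 48 h, against 24.2, 22.2 and 16.5 TPM in wild-type libraries (log2 fold change of 2.56 with an SE of 0.60). Both long members reached 100 TPM through ΔAorlmA-labelled libraries alone, and without wild-type replicate 3 at 0 h the fold change of AOL_s00080g221 was 2.40, and without replicate 1 3.87.

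Labels were missing more often than not. Of the 197, 77 had an eggNOG orthologous group (39.1%, against 97.6% of the annotated abundant genes), 42 a gene ontology term and 104 neither. A membrane term was present for 40 members (20.3%, against 25.9% of the annotated abundant genes). A protein database match was the species' own hypothetical protein in 192 members, and 5 had no match, among them AOL_s00054g914, the third most abundant member. Unlabelled members were shorter, with a median of 576 bases. An orthologous group with a descriptive name was attached to 12 members.

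The most abundant member was AOL_s00076g689 (882 bases, membrane term), which ranked second among all genes. It had 18606, 12460.4 and 13601 TPM in ΔAorlmA-labelled libraries at 0 h, against 10730.5, 8176 and 7557 TPM in wild-type libraries, and these groups did not overlap (log2 fold change of 0.75 with an SE of 0.32, adjusted p = 0.0728), but the difference did not pass the threshold. After induction the libraries held 17578, 12797 and 14069 TPM in ΔAorlmA-labelled libraries at 48 h, against 15998, 20482 and 15793 TPM in wild-type libraries, and the groups overlapped (-0.24, adjusted p = 0.61). AOL_s00176g78 (522 bases, an unnamed orthologous group) had 19035, 20031 and 22285 TPM in ΔAorlmA-labelled libraries at 0 h, against 5265, 18458 and 7976 TPM in wild-type libraries. Wild-type replicate 2 stood well above the other wild-type libraries yet under all ΔAorlmA-labelled libraries (log2 fold change of 1.15 with an SE of 0.44, adjusted p = 0.051). After induction it had 19322, 12229.7 and 15740.0 TPM in ΔAorlmA-labelled libraries at 48 h, against 6124, 10783 and 6236 TPM in wild-type libraries, again without overlap and again short of the threshold (log2 fold change of 1.06 with an SE of 0.44, adjusted p = 0.0961). AOL_s00054g914 (198 bases, no label) spanned 4971 to 12780 TPM over the 12 libraries, with overlapping strains at both times (-0.41, adjusted p = 0.326 at 0 h).

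**Figure D2:**
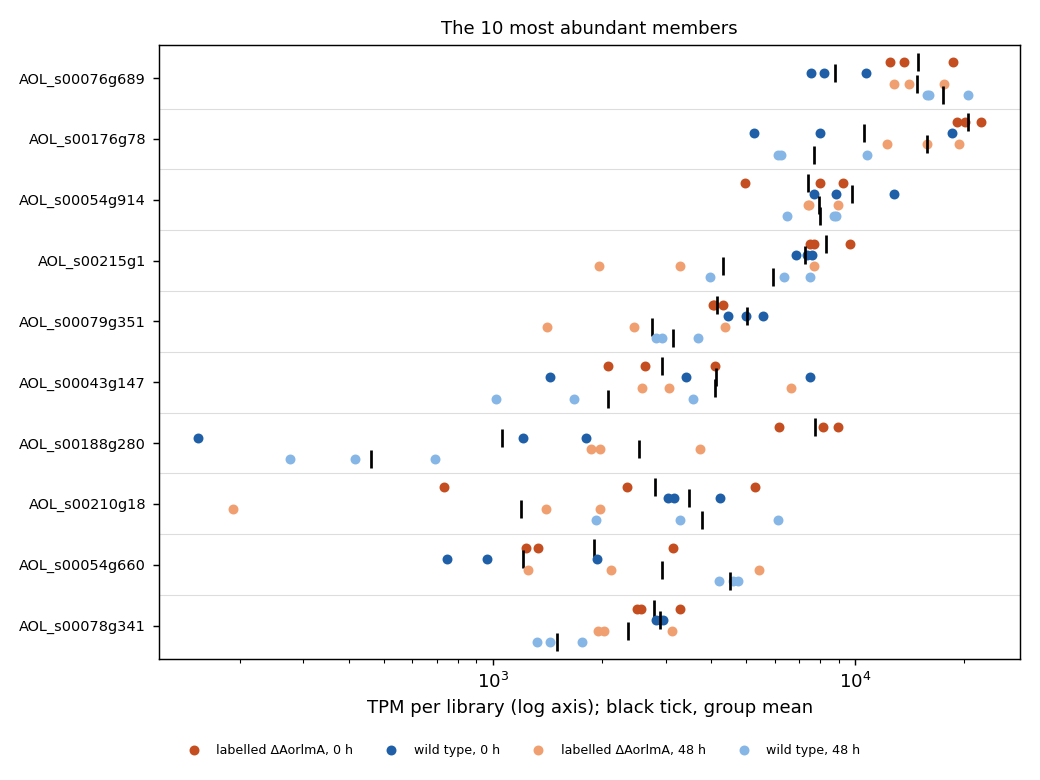
TPM (log axis) of the 10 most abundant members in each of the 12 libraries, by group. The first 2 members lie between 5265 and 22285 TPM in every library, while AOL_s00188g280 separates the libraries labelled ΔAorlmA from the wild type at both times.

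Of the 10 most abundant members, 1 was called between the strains, and all 10 averaged over 100 TPM in both strains. AOL_s00188g280 (339 bases, no label) had 8125, 6156 and 8981 TPM in ΔAorlmA-labelled libraries at 0 h, against 1808, 1213 and 154 TPM in wild-type libraries (log2 fold change of 3.46 with an SE of 0.71, adjusted p = 0.004). With induction it reached 1972, 1869 and 3728 TPM in ΔAorlmA-labelled libraries at 48 h, against 416, 690.2 and 275 TPM in wild-type libraries (log2 fold change of 2.48 with an SE of 0.71, adjusted p = 0.0269). Without wild-type replicate 3 at 0 h the fold change at 0 h was 2.37, and without replicate 1 4.14. The strains did not overlap at either time, and the call at 48 h was lost without ΔAorlmA replicate 2 or 3 at 48 h, or wild-type replicate 1 or 3 at 48 h (adjusted p up to 0.111). AOL_s00210g18 (321 bases) had 1979, 192 and 1406 TPM in ΔAorlmA-labelled libraries at 48 h, against 6122, 1931 and 3283 TPM in wild-type libraries, with a difference short of the threshold (log2 fold change of -2.06 with an SE of 0.82, adjusted p = 0.084). AOL_s00215g1 (483 bases) had 7697, 1965 and 3289 TPM at 48 h, against 9679.8, 7521 and 7711 TPM at 0 h, in ΔAorlmA-labelled libraries (-1.17, adjusted p = 0.0713), which did not pass either. The others were AOL_s00079g351, AOL_s00043g147, AOL_s00054g660 and AOL_s00078g341; their strain differences lay between -0.89 and 1.04 on the log2 scale, and AOL_s00078g341 (336 bases) had the closest to the threshold, with 2020.2, 1947 and 3131 TPM in ΔAorlmA-labelled libraries at 48 h, against 1758, 1325 and 1434 TPM in wild-type libraries (0.63, adjusted p = 0.0994).

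Together the members took a larger part of the library in the strain labelled ΔAorlmA. Their summed share of TPM was 13.8 ± 1.04% in ΔAorlmA-labelled libraries at 0 h, against 10.02 ± 1.29% in the wild type at 0 h, and 12.3 ± 0.427% in ΔAorlmA-labelled libraries at 48 h, against 9.87 ± 0.891% in the wild type at 48 h (SD, n = 3 each). The libraries spanned 13.0 to 14.98% against 8.53 to 10.8% at 0 h and 11.9 to 12.7% against 9.25 to 10.9% at 48 h, with no overlap at either time. Without the 2 most abundant members the shares were 9.73 to 11.2% against 6.97 to 9.10% at 0 h, and 9.02 to 9.37% against 7.05 to 7.77% at 48 h. The annotated genes of the same level and band held 54.8% in ΔAorlmA-labelled libraries at 0 h, against 51.2% in the wild type at 0 h, and 57.5% against 58.8% at 48 h. The 67 unannotated abundant genes outside the band leaned as the members did. They held a mean of 4.98% against 4.40% at 0 h, with overlap. At 48 h they held 2.80 to 3.05% against 1.78 to 2.24%, without overlap. No test was made on these sums, because the level limit, applied to the mean of both strains, chose the genes.

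**Figure D3:**
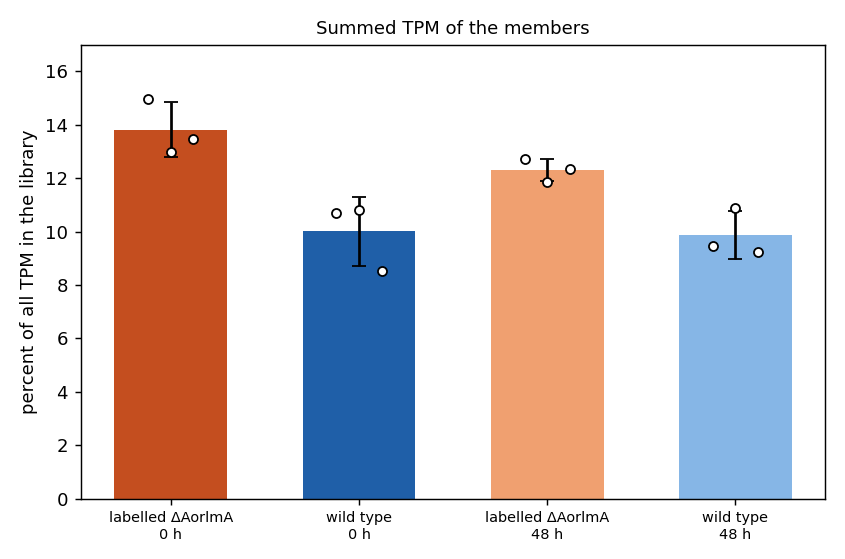
Summed share of TPM held by the 197 members (percent, axis from 0) in each library (points), with the mean and SD of each group. The libraries labelled ΔAorlmA lie between 11.9 and 14.98%, and the wild-type libraries between 8.53 and 10.9%.

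The level limit bears on the strain contrasts. Of the members, 127 averaged at least 100 TPM in both strains, 47 (23.9%) did so in ΔAorlmA-labelled libraries alone and 23 (11.7%) in the wild type alone. Among the annotated genes of the same level and band, 145 (10.3%) reached it in ΔAorlmA-labelled libraries alone and 207 (14.8%) in the wild type alone. A member that passed through 1 strain had to be lower in the other, so the counts below are also given for the 127, and strain p-values of single members only for those. All 197 members met the filter on low values, none was listed at 0 in any library, and 184 had at least 10 TPM in every library.

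Before induction, 80 of 197 members were called between the strains, 49 of them higher and 31 lower in ΔAorlmA-labelled libraries. The background was 42.7% of all genes called, 8.87% higher and 33.8% lower. Changes of at least 2-fold were found for 47 of the higher and 19 of the lower members (32.5% of all genes were called with at least 2-fold). Differences ranged over -2.92 to 9.18 on the log2 scale with a median of 0.16, against a median of -0.56 for all genes and of -0.30 for the 1402 annotated genes of the same level and band, of which 202 were higher and 351 lower (39.4% called, against 40.6% of the members). The 67 unannotated abundant genes outside the band had 16 higher and 14 lower with a median of 0.19. Scaling the libraries by median-of-ratios size factors moved the median of all genes to -0.06 and that of the members to 0.72, and the calls to 71 higher and 9 lower, 40.6% of the members against 25.4% of all genes (1341 higher and 1033 lower). Among the 127 members abundant in both strains, 20 were higher and 18 lower with a median of 0.07 (29.9% called, against 42.7% of all genes). Of the 47 members that passed through ΔAorlmA-labelled libraries alone, 29 were called higher and 0 lower. Without replicate 1 of the strain labelled ΔAorlmA at both times, 47 were higher and 45 lower at 0 h (46.7% of the members, against 53.3% of all genes).

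The 5 members with the largest called rises at 0 h (AOL_s00080g84, AOL_s00188g197, AOL_s00004g571, AOL_s00004g570 and AOL_s00007g460) all reached 100 TPM through ΔAorlmA-labelled libraries alone, so their differences are a description. The widest was that of AOL_s00080g84 (672 bases, no label), which had 1079, 594 and 1824 TPM in ΔAorlmA-labelled libraries at 0 h, against 1.28, 0.95 and 0.34 TPM in wild-type libraries (log2 fold change of 9.18 with an SE of 0.54). It stayed at or under 3 TPM in every wild-type library and was the only member with a library under 1 TPM. AOL_s00188g197 (435 bases) had 107, 634 and 838 TPM in ΔAorlmA-labelled libraries at 0 h, against 1.1, 15.6 and 4.23 TPM in wild-type libraries (log2 fold change of 6.09 with an SE of 0.97). Spread was wide in both strains, yet no libraries crossed, and the fold change was 5.37 to 7.01 when a library was left out. AOL_s00007g460 (753 bases) had 570.3, 921 and 457 TPM in ΔAorlmA-labelled libraries at 0 h, against 28.9, 30.1 and 10.8 TPM in wild-type libraries (log2 fold change of 4.81 with an SE of 0.39). Its lowest ΔAorlmA-labelled library stood far above the highest wild-type library.

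A pair of adjacent genes, AOL_s00004g570 (342 bases) and AOL_s00004g571 (1632 bases), were both higher. AOL_s00004g571 had 1279.5, 582 and 1629 TPM in ΔAorlmA-labelled libraries at 0 h, against 35.4, 23.2 and 3.81 TPM in wild-type libraries (log2 fold change of 6.04 with an SE of 0.67). AOL_s00004g570 had 526, 277 and 715 TPM in ΔAorlmA-labelled libraries at 0 h, against 15.5, 9.11 and 1.59 TPM in wild-type libraries (log2 fold change of 5.96 with an SE of 0.60). Wild-type replicate 3 was the lowest of its group for both genes, and without it the fold changes were 5.17 for AOL_s00004g571 (6.63 without replicate 1) and 5.19 for AOL_s00004g570. Another adjacent pair, which averaged over 100 TPM in both strains, was called higher at 0 h and not at 48 h. AOL_s00075g86 (342 bases) had 1478, 1691 and 1533 TPM in ΔAorlmA-labelled libraries at 0 h, against 634, 317 and 5.17 TPM in wild-type libraries (log2 fold change of 3.86 with an SE of 1.23, adjusted p = 0.025), a call lost without ΔAorlmA replicate 2 or 3 at 0 h (adjusted p up to 0.0773 over the settings tried). Its fold change was 1.80 without wild-type replicate 3, 4.65 without replicate 2 and 5.14 without replicate 1. AOL_s00075g87 (2103 bases) had 669.6, 1256 and 1352 TPM in ΔAorlmA-labelled libraries at 0 h, against 191, 119 and 8.8 TPM in wild-type libraries (log2 fold change of 4.10 with an SE of 0.79, adjusted p = 0.00321), and a fold change of 2.78 without wild-type replicate 3 and 4.93 without replicate 1. Wild-type replicate 3 at 0 h was the lowest of its group in 41 of the 49 members called higher at 0 h and the highest in 22 of the 31 called lower. Without it, 50 members (25.4%) were called at 0 h in place of 80, and 22.4% of all genes in place of 42.7%.

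Members lower at 0 h had smaller differences, and the first 3 given here reached 100 TPM through the wild type alone. AOL_s00210g273 (372 bases) had 16.1, 114 and 85.9 TPM in ΔAorlmA-labelled libraries at 0 h, against 198, 578 and 646 TPM in wild-type libraries (log2 fold change of -2.92 with an SE of 0.69, or -2.07 without ΔAorlmA replicate 1). AOL_s00079g235 (819 bases, membrane term) had 21.4, 105 and 30.3 TPM in ΔAorlmA-labelled libraries at 0 h, against 240.2, 314 and 409.9 TPM in wild-type libraries (log2 fold change of -2.90 with an SE of 0.49, or -3.57 without ΔAorlmA replicate 2). AOL_s00215g429 (1092 bases, membrane term) had 43.5, 42.3 and 17.4 TPM in ΔAorlmA-labelled libraries at 0 h, against 154, 137 and 179 TPM in wild-type libraries (log2 fold change of -2.26 with an SE of 0.54). In all 3 genes all ΔAorlmA-labelled libraries lay under all wild-type ones. The next 2 averaged over 100 TPM in both strains. AOL_s00097g565 (1464 bases) had 61.2, 72.97 and 33.1 TPM in ΔAorlmA-labelled libraries at 0 h, against 247, 157 and 396 TPM in wild-type libraries (log2 fold change of -2.21 with an SE of 0.48, adjusted p = 0.00508), and its strains overlapped at 48 h. AOL_s00004g561 (441 bases) had 182, 394 and 223 TPM in ΔAorlmA-labelled libraries at 0 h, against 999, 1027 and 1084 TPM in wild-type libraries (log2 fold change of -2.04 with an SE of 0.28, adjusted p = 0.00067), with little spread among the wild-type libraries.

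**Figure D4:**
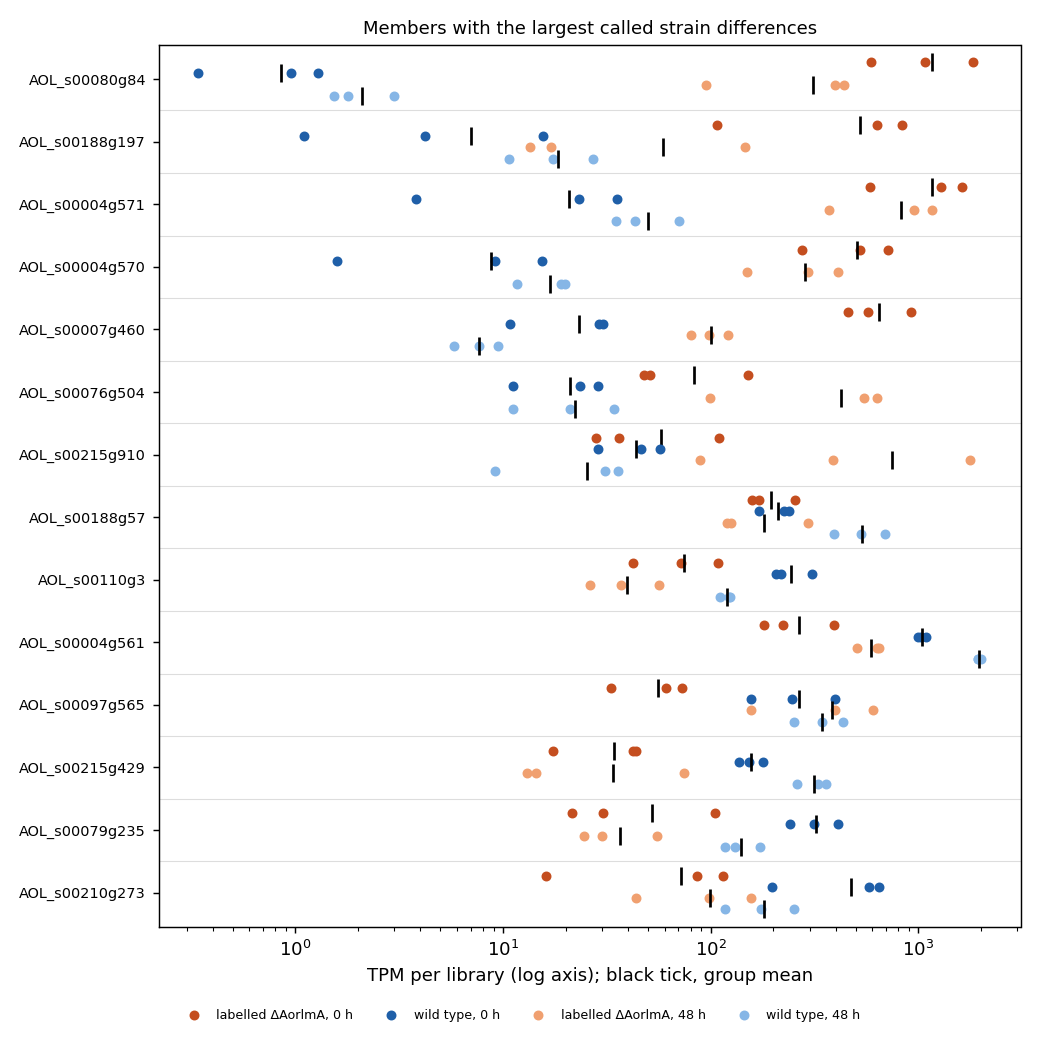
TPM (log axis) per library of the members with the greatest called strain differences, with the libraries labelled ΔAorlmA beside the wild type at each time. AOL_s00080g84 stays at or under 3 TPM in the wild type and between 94.97 and 1824 TPM in ΔAorlmA-labelled libraries.

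After 48 h of induction, 58 members were called between the strains, 43 higher and 15 lower in ΔAorlmA-labelled libraries. The background was 23.9% of all genes called, 9.2% higher and 14.7% lower. At least 2-fold changes were found for 43 of the higher and 10 of the lower members (19.8% of all genes), and differences ranged over -3.63 to 6.40 with a median of 0.55 on the log2 scale, against -0.11 for all genes and -0.15 for the annotated genes of the same level and band (191 higher and 315 lower). Of those annotated genes 36.1% were called, against 29.4% of the members. The 67 unannotated abundant genes outside the band leaned the same way, with 16 higher and 3 lower and a median of 0.71. Median-of-ratios scaling gave 47 higher and 7 lower members (27.4%), against 1002 higher and 1172 lower of all genes (23.2%). Among the 127 members abundant in both strains, 17 were higher and 8 lower with a median of 0.37 (19.7% called, against 23.9% of all genes). In the 43 members called higher, ΔAorlmA replicate 1 at 48 h was the lowest of its group in 32. Leaving out ΔAorlmA replicate 2 or 3 at 48 h left 27 (13.7%) or 22 (11.2%) members called at 48 h, against 8.15% or 5.25% of all genes. Leaving out wild-type replicate 2 or 3 at 48 h left 36 (18.3%) or 27 (13.7%), against 9.20% or 7.45% of all genes. Without ΔAorlmA replicate 1 at both times, 68 were higher and 35 lower (52.3% of the members, against 42.8% of all genes).

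The 5 members with the largest called rises at 48 h also reached 100 TPM through ΔAorlmA-labelled libraries alone and are described without a p-value. AOL_s00080g84 again had the widest difference, with 398, 94.97 and 439 TPM in ΔAorlmA-labelled libraries at 48 h, against 2.98, 1.79 and 1.53 TPM in wild-type libraries (log2 fold change of 6.40 with an SE of 0.54, or 7.11 without ΔAorlmA replicate 2). AOL_s00215g910 (570 bases, membrane term) had 88.8, 1771 and 387 TPM in ΔAorlmA-labelled libraries at 48 h, against 31.1, 35.8 and 9.11 TPM in wild-type libraries (log2 fold change of 4.11 with an SE of 0.87). The ΔAorlmA-labelled libraries spread widely there, and the fold change was 3.03 without replicate 2 and 5.18 without replicate 1. The strains overlapped at 0 h. AOL_s00076g504 (1260 bases) had 635, 99.1 and 545 TPM in ΔAorlmA-labelled libraries at 48 h, against 11.2, 20.99 and 34.3 TPM in wild-type libraries (log2 fold change of 3.95 with an SE of 0.68). Without ΔAorlmA replicate 2 at 48 h the fold change was 4.80. The neighbours AOL_s00004g571 and AOL_s00004g570 were again apart from the wild type. AOL_s00004g571 had 372, 955 and 1159 TPM in ΔAorlmA-labelled libraries at 48 h, against 35.1, 70.7 and 43.1 TPM in wild-type libraries (log2 fold change of 3.94 with an SE of 0.67). AOL_s00004g570 had 149.7, 296 and 412 TPM in ΔAorlmA-labelled libraries at 48 h, against 11.6, 19.9 and 19.1 TPM in wild-type libraries (log2 fold change of 3.92 with an SE of 0.60). AOL_s00007g460 stood at 99.97 ± 20.4 TPM in ΔAorlmA-labelled libraries at 48 h, against 7.63 ± 1.81 TPM in wild-type libraries (SD, n = 3 each; log2 fold change of 3.55 with an SE of 0.39).

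Among members lower at 48 h, AOL_s00215g429, AOL_s00079g235 and AOL_s00110g3 reached 100 TPM through the wild type alone. AOL_s00215g429 had 74.6, 12.99 and 14.5 TPM in ΔAorlmA-labelled libraries at 48 h, against 358, 329 and 259.8 TPM in wild-type libraries (log2 fold change of -3.63 with an SE of 0.54, or -4.41 without ΔAorlmA replicate 1). AOL_s00079g235 had 55.4, 24.4 and 29.96 TPM in ΔAorlmA-labelled libraries at 48 h, against 130.5, 117 and 173 TPM in wild-type libraries (log2 fold change of -1.97 with an SE of 0.49). AOL_s00004g561 had 507, 644 and 632 TPM in ΔAorlmA-labelled libraries at 48 h, against 1946, 1943 and 2011 TPM in wild-type libraries (log2 fold change of -1.73 with an SE of 0.28, adjusted p = 0.0045). Its groups stayed apart at both times. AOL_s00188g57 (549 bases) had 294, 119.8 and 126 TPM in ΔAorlmA-labelled libraries at 48 h, against 529, 688 and 394 TPM in wild-type libraries (log2 fold change of -1.67 with an SE of 0.35, adjusted p = 0.00978); without ΔAorlmA replicate 3 at 48 h the adjusted p was 0.0525. AOL_s00110g3 (960 bases), whose orthologous group is described by a UBX domain, a fold found in adaptors of the Cdc48 ATPase, had 56.2, 26.2 and 36.8 TPM in ΔAorlmA-labelled libraries at 48 h, against 124, 111 and 123 TPM in wild-type libraries (log2 fold change of -1.63 with an SE of 0.35), with a fold change at 0 h of -1.78 on the log2 scale. Its neighbour AOL_s00110g4 is 1 of the genes just under the lower edge of the band.

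At both times together, 37 members (18.8%) were called, against 13.0% of all genes tested, and all 37 kept their direction (27 higher and 10 lower in ΔAorlmA-labelled libraries). Of the 27, 9 averaged at least 100 TPM in the wild type, and the others passed the level limit through ΔAorlmA-labelled libraries alone. Among the 10, AOL_s00215g429, AOL_s00079g235 and AOL_s00110g3 passed it through the wild type alone. Such members had to differ between the strains in that direction to be chosen. The share called at both times and the kept direction are therefore a description. The remaining calls were 22 higher and 21 lower at 0 h alone and 16 higher and 5 lower at 48 h alone. Of the 22, 11 averaged at least 100 TPM in the wild type, and of the 16, 8 did. The other higher members passed the level limit through ΔAorlmA-labelled libraries alone. Whether the strain difference itself changed with time was not tested, since it contains the wild-type time course that the rule bounded. Neither time gave a call for 96 members, and 73 were called in none of the contrasts tested. The 2 strain contrasts use different libraries, with 3 per group at each time.

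**Figure D5:**
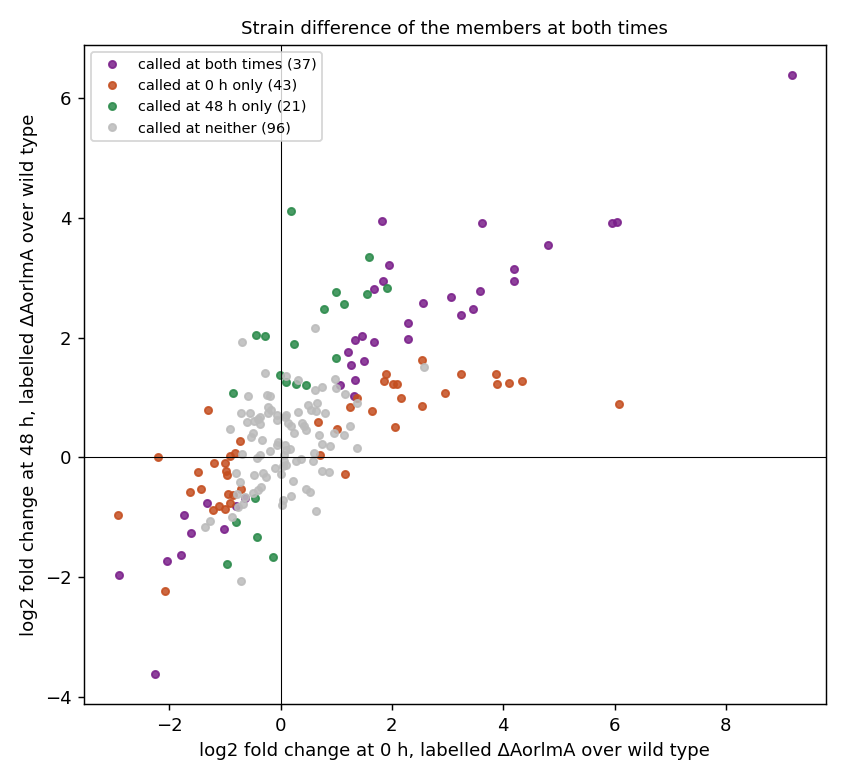
Log2 fold change of the libraries labelled ΔAorlmA over the wild type at 0 h (horizontal axis) and at 48 h (vertical axis) for the 197 members, coloured by the contrasts in which they were called. The 37 members called at both times lie in the quadrants of equal sign, 27 higher and 10 lower.

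By length, the share of members called at 0 h varied little, and the directions differed more; 42.7% of all genes were called at 0 h and 23.9% at 48 h. Of the 48 members over 1200 bases, 16 were higher and 4 lower at 0 h, and 10 higher and 0 lower at 48 h (medians 0.66 and 0.63). Of the 70 members of 600 to 1200 bases, 18 were higher and 12 lower at 0 h, and 17 and 6 at 48 h (medians 0.28 and 0.51). In the 62 members of 300 to 600 bases 12 were higher and 12 lower at 0 h, and 13 and 6 at 48 h (medians -0.07 and 0.63). In the 17 shortest, 3 were higher and 3 lower at each time (medians -0.43 and 0.04). By label, the 40 membrane-term members had 11 higher and 4 lower at 0 h and 9 and 4 at 48 h. The 104 members without a label had 30 and 19 at 0 h and 24 and 9 at 48 h, and the 44 with an unnamed orthologous group had 5 and 6, and 9 and 1. These are counts only, and no difference between lengths or labels was tested. They include the 47 members that passed the level limit through ΔAorlmA-labelled libraries alone and the 23 that passed through the wild type alone. Of the 47, 29 were called higher at 0 h and 26 at 48 h, and 0 lower at either time. How these members divide over lengths and labels is not given here. Of all genes, 8.87% were higher and 33.8% lower at 0 h, and 9.2% and 14.7% at 48 h.

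The members with a descriptive orthologous group were looked at after their values were known. AOL_s00054g655, of a group with a PX (phosphoinositide-binding) domain, had 842 ± 158 TPM in ΔAorlmA-labelled libraries at 0 h, against 859 ± 46.6 TPM in wild-type libraries (SD, n = 3 each; -0.04, adjusted p = 0.895), and rose with time in ΔAorlmA-labelled libraries (log2 fold change of 1.00 with an SE of 0.24, adjusted p = 0.0146). AOL_s00006g141, grouped with the beta subunit of casein kinase II, had 413 ± 55.2 TPM in ΔAorlmA-labelled libraries at 0 h, against 257 ± 31.5 TPM in wild-type libraries (log2 fold change of 0.68 with an SE of 0.24, adjusted p = 0.0357). A peroxin-like member, AOL_s00043g516, of a group for proteins of peroxisome biogenesis, had 421 ± 173 TPM in ΔAorlmA-labelled libraries at 0 h, against 187 ± 97.9 TPM in wild-type libraries (log2 fold change of 1.25 with an SE of 0.39, adjusted p = 0.0241). AOL_s00176g61, of the phosphoglycerate mutase family, had 468 ± 273 TPM in ΔAorlmA-labelled libraries at 0 h, against 83.5 ± 55.1 TPM in wild-type libraries (log2 fold change of 2.55 with an SE of 0.53, adjusted p = 0.0043). At 48 h the casein kinase, peroxin and mutase members did not pass the threshold (adjusted p = 0.0866, 0.133 and 0.25).

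AOL_s00007g94, described by a finger domain, and AOL_s00088g53, of the pfkB family of sugar kinases, reached 100 TPM through ΔAorlmA-labelled libraries alone. Differences of AOL_s00007g94 were 1.27 on the log2 scale at 0 h and 1.54 on the log2 scale at 48 h. AOL_s00088g53 had 237 ± 209.9 TPM in ΔAorlmA-labelled libraries at 48 h, against 18.97 ± 16.04 TPM in wild-type libraries (log2 fold change of 3.35 with an SE of 0.91). A pair of members are described as subunits of NADH-ubiquinone oxidoreductase, the first complex of the respiratory chain. AOL_s00078g271 had 115 ± 31.1 TPM in ΔAorlmA-labelled libraries at 0 h, against 184 ± 29.3 TPM in wild-type libraries (log2 fold change of -0.70 with an SE of 0.23, adjusted p = 0.0295). AOL_s00004g503 had 104 ± 36.5 TPM in ΔAorlmA-labelled libraries at 0 h, against 166 ± 54.7 TPM in wild-type libraries (log2 fold change of -0.68 with an SE of 0.30, adjusted p = 0.0805), which did not pass. AOL_s00006g106 (a glycosyltransferase family) and AOL_s00140g54 (tyrosinase, an enzyme of pigment synthesis) did not pass at either time, with differences at 0 h of 0.98 and -1.28 on the log2 scale. AOL_s00210g29 (a protein kinase domain) averaged 97.2 TPM at 0 h and 73.2 TPM at 48 h in the wild type. It reached 100 TPM through ΔAorlmA-labelled libraries alone, so its difference at 0 h of 0.61 on the log2 scale is a description.

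In the strain labelled ΔAorlmA, 44 members were called between 48 h and 0 h, 28 higher and 16 lower at 48 h. The background was 21.5% of all genes called, 13% higher and 8.52% lower. The level limit used these libraries too, so a member could pass it through 1 time alone. Among the 127 members abundant in both strains, 30 were called over time (23.6%), 20 higher and 10 lower with a median of 0.14. That set was still chosen with the libraries of both times. Differences ranged over -4.07 to 3.01 on the log2 scale with a median of 0.06, against 0.14 for all genes, and 21 rises and 11 falls were at least 2-fold (18.1% of all genes). Median-of-ratios scaling gave 18 higher and 20 lower, and a median of -0.11 (all genes 954 higher and 1125 lower), and quantile normalization a median of -0.05, so the direction of the median and the balance of calls depended on the scaling. Without replicate 2 or 3 at 0 h, 17 (8.63%) or 26 (13.2%) members were called, against 7.70% or 13.0% of all genes. Without replicate 2 or 3 at 48 h it was 22 (11.2%) or 28 (14.2%), against 11.3% or 14.6% of all genes. Without replicate 1 at both times, 49 were higher and 20 lower (35.0% of the members, against 36.6% of all genes). The libraries at 0 h are shared with the strain contrast at 0 h, and those at 48 h with the one at 48 h.

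The largest called rise in time, that of AOL_s00215g910, was 88.8, 1771 and 387 TPM at 48 h, against 36.3, 27.96 and 109 TPM at 0 h, in ΔAorlmA-labelled libraries (log2 fold change of 3.01 with an SE of 0.87). This gene passed the level limit through the ΔAorlmA-labelled libraries at 48 h, so its rise is described without a p-value. The times overlapped, and the call was lost when replicate 1 or 2 at 0 h or replicate 2 or 3 at 48 h was left out. Its fold change was 1.92 without replicate 2 at 48 h and 4.07 without replicate 1 at 48 h. AOL_s00097g565 had 604, 156 and 398 TPM at 48 h, against 61.2, 72.97 and 33.1 TPM at 0 h, in ΔAorlmA-labelled libraries (log2 fold change of 2.64 with an SE of 0.48, adjusted p = 0.00477). AOL_s00080g439 (504 bases) had 302, 661 and 214 TPM at 48 h, against 31, 127 and 58.2 TPM at 0 h, in ΔAorlmA-labelled libraries (log2 fold change of 2.49 with an SE of 0.60), a call lost without replicate 2 at 48 h. AOL_s00054g738 (1539 bases) had 192, 250.04 and 276 TPM at 48 h, against 127, 30.3 and 27.2 TPM at 0 h, in ΔAorlmA-labelled libraries (log2 fold change of 2.30 with an SE of 0.45), and a larger one without replicate 1 at 0 h. AOL_s00080g439 and AOL_s00054g738 also passed the level limit only with the ΔAorlmA-labelled libraries at 48 h, so their rises too are a description.

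The largest fall was that of AOL_s00083g358 (858 bases, membrane term), with 11.3, 29.6 and 43.2 TPM at 48 h, against 1584, 216 and 229.97 TPM at 0 h, in ΔAorlmA-labelled libraries (log2 fold change of -4.07 with an SE of 0.72), and a fold change of -3.13 without replicate 1 at 0 h. Its wild-type libraries held 9.4 to 31.5 TPM at 0 h, and it reached 100 TPM through ΔAorlmA-labelled libraries alone. AOL_s00188g197 had 13.4, 17.1 and 146 TPM at 48 h, against 107, 634 and 838 TPM at 0 h, in ΔAorlmA-labelled libraries (log2 fold change of -3.52 with an SE of 0.97), a call lost when replicate 2 or 3 at 0 h or replicate 1 or 2 at 48 h was left out. The times overlapped for this gene. Its fold change was -4.58 to -2.91 when a library was left out. AOL_s00007g460 had 97.95, 80.7 and 121 TPM at 48 h, against 570.3, 921 and 457 TPM at 0 h, in ΔAorlmA-labelled libraries (log2 fold change of -2.64 with an SE of 0.39). The wild-type log2 ratios of these 3 genes lay inside the band by the rule. All 3 passed the level limit through the ΔAorlmA-labelled libraries at 0 h, so their falls are described without a p-value. Another called fall without overlap, that of AOL_s00080g84, is given below.

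Runs of neighbouring loci were few: 3 runs of 2 adjacent members, none overlapping another gene. Besides the pairs given above, AOL_s00004g560 (525 bases) and AOL_s00004g561 are adjacent. AOL_s00004g560 had 169.7, 199 and 188 TPM in ΔAorlmA-labelled libraries at 0 h, against 145, 105 and 136 TPM in wild-type libraries (log2 fold change of 0.54 with an SE of 0.23, adjusted p = 0.0783), while AOL_s00004g561 was lower at both times. 

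In the authors' deposited table of their own calls, 146 of the members are listed. The authors' deposited table calls 91 members at 0 h (83 up and 8 down), of which 57 were also called here. The authors' deposited table calls 85 at 48 h (76 up and 9 down), 49 of them called here, and 52 for 48 h against 0 h in the strain labelled ΔAorlmA (18 up and 34 down), 27 of them called here. Its word up stood beside a positive fold change here in 97.8%, 95.7% and 98.1% of the calls in these 3 comparisons. That table gives no fold changes or p-values, so the calls were only counted.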

How the data were processed

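RNA of 12 hyphal libraries was sequenced, with groups taken from the labels (genotype, time) and replicates numbered by the titles. Per the file headers, the authors deposited TPM per gene and library, and FPKM with annotations; FPKM equalled TPM times a constant in each library to within 0.089% (values of at least 10 TPM). Deposited read statistics give counts of clean reads and the percent of bases passing a quality limit. Aligner, quantifier and genome build were not given in the sources used here. Columns of group means (8) were left unused. Gene lengths were multiples of 3 for 99.98% of genes, so they are coding lengths.

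The 9355 genes reaching 1 TPM in 3 or more libraries were fitted once with limma 3.58.1 under R 4.3.3 (lmFit, then eBayes, trend on) on log2(TPM + 1), with a mean for each of the 4 groups and 8 residual degrees of freedom. Fold changes are on that scale, which understates the change of low genes. Tests were two-sided, adjusted by Benjamini-Hochberg over all genes tested, with calls at adjusted p under 0.05. The fit was tested on simulated data. Tables and plots used Python 3.11.15, pandas 2.3.3 and matplotlib 3.10.9. No count per gene was used, so depth error is not separated from the spread between libraries; the labels call replicates biological but do not mention separate cultures, so p-values may measure technical spread.

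Genes named are the 10 most abundant, the 5 largest called rises and falls without overlap per strain contrast, the 3 per direction for time, the 2 shortest and longest, the 3 steadiest, those at the limits and adjacent members. Members and lists were chosen with earlier results of these data known. Sequences and promoter motifs were not analysed here. Alternatives covered pseudocounts, filters, scalings, the level limit, left-out libraries and a replicate block.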

Additional observations from a re-analysis of the deposited data

Results flagged for a closer look

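For AOL_s00080g84 the time difference (48 h minus 0 h, on the log2 scale) was -2.04 as fitted in ΔAorlmA-labelled libraries and 0.74 as the ratio of means in the wild type, with no overlap between times in either strain. This gene passed the level limit only with the ΔAorlmA-labelled libraries at 0 h, so its fall is described without a p-value. The fitted call was lost without ΔAorlmA replicate 3 at 0 h or replicate 2 at 48 h, with a difference of -1.33 without the second of these. The opposite directions drew attention; the difference between the strains was not tested, and the wild-type libraries held at most 3 TPM.

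For AOL_s00004g560 the strain difference (ΔAorlmA minus wild type, log2) was 0.54 at 0 h (adjusted p = 0.0783) and -0.58 at 48 h (adjusted p = 0.0874), again in opposite directions without overlap at either time. The same held for AOL_s00112g34 (1149 bases) and AOL_s00043g657 (2292 bases), chosen after their values were seen. AOL_s00112g34 had 180.2, 122 and 123 TPM in ΔAorlmA-labelled libraries at 0 h, against 200.3, 193 and 198 TPM in wild-type libraries (-0.50, adjusted p = 0.104), and 255, 379 and 275 TPM in ΔAorlmA-labelled libraries at 48 h, against 232, 245 and 198 TPM in wild-type libraries (0.41, adjusted p = 0.213). AOL_s00043g657 had 67.5, 52.02 and 74.4 TPM in ΔAorlmA-labelled libraries at 0 h, against 104, 84.8 and 92.1 TPM in wild-type libraries (-0.54, adjusted p = 0.0666), and 189, 219 and 205 TPM in ΔAorlmA-labelled libraries at 48 h, against 185, 161 and 140.3 TPM in wild-type libraries (0.34, adjusted p = 0.274). The change of the strain difference with time was not tested in these 3 genes.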

How the results depend on the processing

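The members called at 0 h numbered 50 to 84 when a library was left out, those at 48 h 22 to 78 and those over time in the strain labelled ΔAorlmA 17 to 62. In the same fits, 2096 to 4428, 491 to 3093 and 720 to 3442 of the 9355 genes tested were called, so the counts moved over all genes too. A level limit of 50 TPM (373 members) gave 153, 102 and 86 calls at 0 h, at 48 h and over time (41.0%, 27.3% and 23.1%), and a limit of 200 TPM (95 members) 43, 35 and 21 (45.3%, 36.8% and 22.1%), against 40.6%, 29.4% and 22.3% of the 197 members and 42.7%, 23.9% and 21.5% of all genes. A pair of alternatives were chosen after seeing the data. Members with a wild-type mean of at least 100 TPM (150) gave 51 calls at 0 h (34%), 20 higher and 31 lower with a median of -0.12 against 0.16 for all members, and 32 at 48 h (21.3%). Members abundant in both strains (127) gave 38 at 0 h (29.9%), 25 at 48 h (19.7%) and 30 over time (23.6%). Without the first library labelled ΔAorlmA at each time, 103 members were called at 48 h (52.3%, against 42.8% of all genes) and 69 over time (35.0%, against 36.6%). A fit of only the 2 groups compared gave 16 calls over time (8.12%, against 4.68% of all genes). The median over time turned from 0.06 to -0.11 under median-of-ratios scaling, -0.05 under quantile normalization, -0.07 at 200 TPM and -0.02 without ΔAorlmA replicate 3 at 48 h. The cause of these movements was not tested, beyond the change in members or libraries that each alternative makes. Depth limits could not be separated, since no counts per gene were used.

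With the replicate number as a block, 78 members were called at 0 h (47 higher and 31 lower), 54 at 48 h (41 and 13) and 38 over time (24 and 14). These were 39.6%, 27.4% and 19.3% of the members, against 40.5%, 22.0% and 18.9% of all genes. The calls of all genes split into 814 higher with 2975 lower before induction, 798 with 1257 after it, and 1049 with 717 over time. Same-numbered libraries did not deviate together: between strains the correlations of their deviations were 0.12, 0.10 and -0.02 at 0 h and -0.32, 0.01 and 0.05 at 48 h, and over time 0.17, -0.04 and 0.19. The numbers were thus not taken to pair the samples.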
